A study of Mus musculus with 8 samples.

Results

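Integrins are paired alpha and beta chains that hold a cell to its matrix, and fibronectin is one of the matrix proteins they hold. The transcripts of 10 such genes were followed here: 7 alpha chains (Itga1, Itga2, Itga3, Itga5, Itga10, Itga11 and Itgav), 2 beta chains (Itgb1 and Itgb5) and fibronectin (Fn1). They were chosen by gene symbol, and all 10 were present among the 24067 genes of the deposited table. The cells were articular chondrocytes, the cells that make cartilage, taken from the femoral condyles and tibial plateaus of ICR mice 5 days old and grown in 10% serum at 3% O2. The 4 miR-204 libraries came from cells given a mimic of miR-204 at 50 nM, and the 4 miR-Ctrl libraries from cells given the miR-Ctrl mimic at 50 nM; the labels do not give the sequence of miR-Ctrl or the arm of miR-204. Cells were exposed for 24 h and collected another 24 h later. The comparison asks which transcripts differ when cells carry an excess of miR-204. The labels name no donor animal, culture or pool for any library, so any p below reflects just the scatter among these libraries, and that scatter may be technical.

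In cartilage, collagen is bound by heterodimers of the Itgb1 product with the Itga1, Itga2, Itga10 or Itga11 product, each of which carries an inserted collagen-binding domain in its alpha chain. The Itga5 and Itgav products recognise the RGD motif of fibronectin and other proteins, the first only with the Itgb1 product and the second with several beta chains, among them those of Itgb1 and Itgb5. The Itga3 product, also a partner of the Itgb1 product, is mainly a laminin receptor. Binding of fibronectin by the integrin of Itga5 and Itgb1 drives the assembly of fibronectin fibrils, and inside the cell the beta tails recruit talin and kindlin, which tie the receptor to actin. A microRNA such as miR-204 acts through its seed, bases 2 to 8, which pairs with matching words in the 3′ UTR of a transcript and lowers its level.

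The sequences below show the microRNA and the matches of the members to its seed, without the AAGGGA match of Itga1. The words AAGGGAA and AAGGGA match all of the seed but its last base. The 5p arm is shown as the main mature form. The mature mouse miR-204-5p (RefSeq, GRCm38.p6) is printed 5′ to 3′ with its seed in capitals. Matches were sought in every member's 3′ UTR, taking the longest annotated one (GENCODE M21, GRCm38, the assembly of mm10), and are printed on the transcript strand with the match in capitals and up to 30 bases in all.
mmu-miR-204-5p: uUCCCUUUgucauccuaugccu
Itga11, AAAGGGA: cctaaggactaAAAGGGAccctccaagac
Itga2, AAAGGGA: ctctacacacaAAAGGGActcacccttca
Itga1, AAAGGGA: tcaagctcatcAAAGGGAcgacgtaaggg
Itga1, AAGGGAA: cttgaaggaggAAGGGAAtaaaagcaaga
Itga1, AAGGGAA: cttatcccaggAAGGGAAtcatgactata
Itga1, AAGGGAA: gcaaccacagcAAGGGAAgccatcacacg
Itgb5, AAGGGA: ccattgagccctAAGGGAcctggtagccac

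The words searched were the 8mer AAAGGGAA, the 7mer-m8 AAAGGGA, the 7mer-A1 AAGGGAA and the 6mer AAGGGA, each on the transcript strand and each match counted once, as its longest form. None of the 10 members had an 8mer, which 7.0% of the 10701 tested genes with a 3′ UTR had. Itga1, Itga2 and Itga11, 3 of the 10 members, had a 7mer, against 24.1% of tested genes with a 7mer or 8mer. This count is near that share and is no result about the members. All 3 encode collagen-binding alpha chains, but Itga10, the most abundant of that class, had no match. The 7mer-m8 of Itga11 lay near the start of its 3′ UTR, at base 227 of 1283 (chr9:62782926-62782932, plus strand). That of Itga2 was at base 2877 of 3404 (chr13:114833602-114833608, minus strand). Itga1 had the longest 3′ UTR of the members, 6994 bases, with a 7mer-m8 at base 6599 (chr13:114953485-114953491, minus strand), 3 matches to the 7mer-A1 and 1 to the 6mer. Itgb5 had a 6mer alone, at base 123 of 586 (chr16:33948875-33948880, plus strand). The 3′ UTRs of Itga3, Itga5, Itga10, Itgav, Itgb1 and Fn1, between 692 and 3581 bases long, held none of these words. Each printed match lay within a single exon. A match is a description of the letters and not evidence of binding.

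Levels are given as FPKM, fragments scaled to transcript length and to mapped fragments, so they can be compared between genes. Fn1 was the most abundant member by far, at a mean of 3337 FPKM over the 8 libraries, and ranked 7 among 11612 genes tested. Its 1 value covers 7 listed RefSeq transcripts, so the splice forms of fibronectin are not separated. Itgb1, the common beta chain, was next with 143 FPKM, followed by Itgb5 with 104 FPKM. Among the alpha chains the cartilage collagen receptor gene Itga10 averaged 40.2 FPKM, Itga5 29.2, Itgav 20.5, Itga3 10.4, Itga11 4.62, Itga1 4.14 and Itga2 1.59 FPKM. The order Itga10 above Itga5 held in 7 of 8 libraries and the order Itga11 above Itga1 in 6 of 8. The other neighbours in this order kept it in 8 of 8 libraries, although the ranges of Itgb1 and Itgb5, and of Itga5 and Itgav, overlapped across libraries.

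Replicate number was the main difference among libraries: 58.4% of the variance lay on a first principal component along which the replicate 2 libraries of both groups stood apart. Mmp13, a collagenase, stood there at 908 FPKM with miR-204 and 1628 FPKM with miR-Ctrl, against 3.66 to 54.8 FPKM in the other 6 libraries. Read totals are not given, but the steps between low FPKM values put depth at 0.772 to 0.962 of that of miR-Ctrl replicate 1 in the other 7 libraries, lowest in the replicate 2 libraries. Libraries of equal number deviated from their group means together, so each result is given from limma without the replicate number (unpaired) and with it as a block (paired). Of the marker genes of cartilage, Col2a1 lay between 7836 and 27530 FPKM. Leukocyte Ptprc was at most 0.0309 FPKM and endothelial Pecam1 at most 0.109 FPKM in any library.

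Without the replicate number 0 of the 10 members passed an adjusted p of 0.05 in limma, beside 0.0258% of all 11612 tested genes called higher and 0.181% lower. At an unadjusted p below 0.05 there were 3 members, all higher, beside 6.57% of all tested genes higher and 2.02% lower. With the replicate block, 4 members rose with miR-204 (Itga3, Itga5, Itgav and Itgb5) and 0 fell, beside 12.4% of all tested genes higher and 2.83% lower. The median log2 fold change of the members was 0.145, and that of all tested genes was 0.064. When each library was centred on its median, 3 members rose in the paired fit (Itga3, Itga5 and Itgav), beside 4.99% of all tested genes higher and 4.32% lower. Without both replicate 2 libraries, 5 members rose and 1 fell in the paired fit, beside 24.5% of genes higher and 4.64% lower. Without pair 1 or pair 4, 0 members passed, beside 1.18% of genes higher and 0.801% lower without pair 1, and 0.76% higher and 0.708% lower without pair 4. Without pair 3 Itga5 and Itgav rose, beside 2.27% of genes higher and 1.31% lower. Fold changes below are on the log2(FPKM + 1) scale, miR-204 over miR-Ctrl, and understate the change of low genes.

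**Figure D1:**
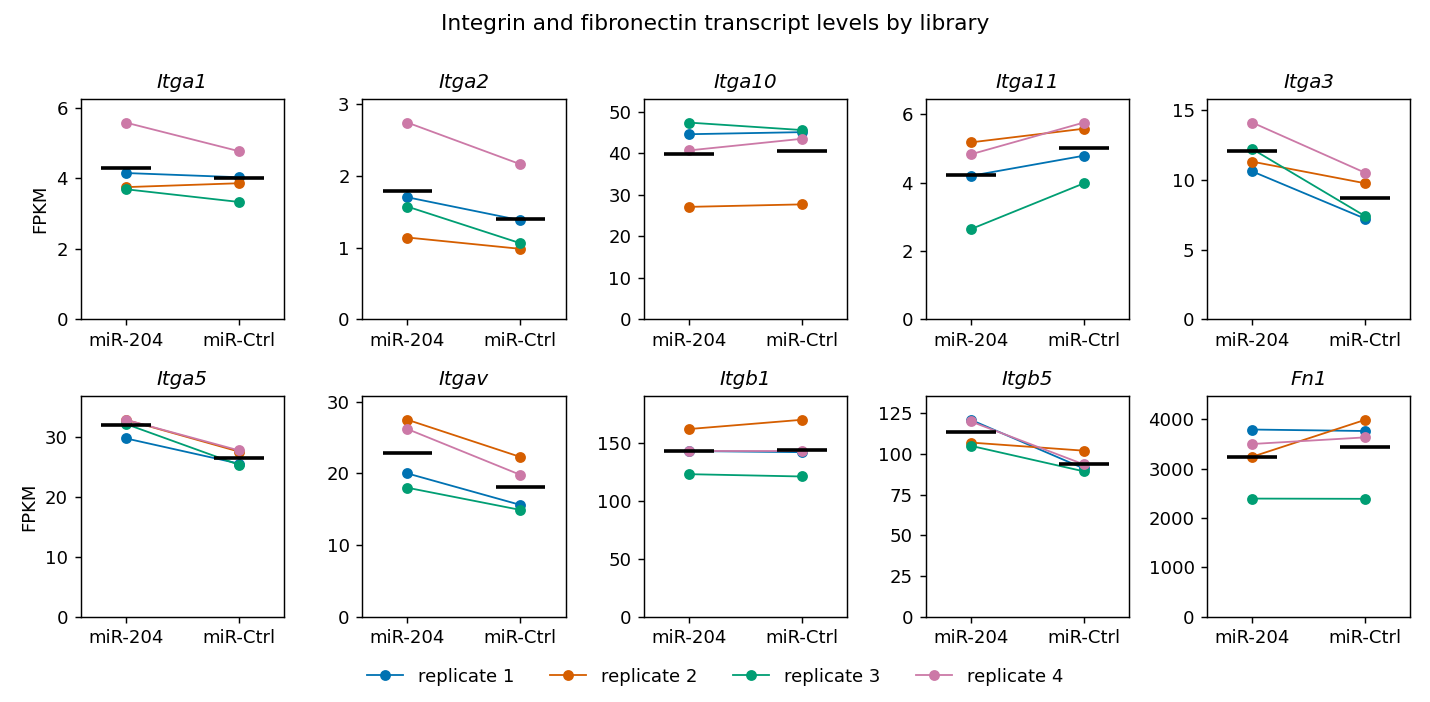
FPKM of each member (vertical axis, from 0) in the miR-204 and miR-Ctrl libraries; each point is 1 library, thin lines join libraries of equal replicate number, and thick bars are group means (n = 4 each). Itga3, Itga5 and Itgb5 are higher with miR-204 without overlap between the groups, as are 4.32% of tested genes. The lines of Itgav all slope the same way, and 33.9% of tested genes are higher with miR-204 in 4 of 4 pairs. Itgb1 and Itga10 each have the same replicate numbers at the extremes of both groups. Fn1 is lowest in replicate 3 of both groups.

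Both RGD-binding alpha chains rose with miR-204 in the paired fit, in every pair by a similar amount. Itga5 (gene ID 16402; chr15:103344286-103366763, minus strand), the fibronectin receptor alpha chain, was at 29.7, 32.8, 32.1 and 32.8 FPKM in miR-204 replicates 1 to 4, against 25.5, 27.5, 25.3 and 27.7 FPKM in miR-Ctrl replicates 1 to 4. Every miR-204 library lay above every miR-Ctrl library. The means were 31.8 ± 1.45 FPKM with miR-204 and 26.5 ± 1.27 FPKM with miR-Ctrl (SD, n = 4 each), a log2 fold change of 0.257 with a paired SE of 0.036. The unpaired adjusted p of Itga5 was 0.210 and the paired one 0.0118 in limma. Its difference was 0.214, 0.246, 0.330 and 0.237 within pairs 1 to 4.

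Itgav (16410; chr2:83724397-83806916, plus strand), the alpha chain shared by vitronectin and fibronectin receptors, was at 20.0, 27.5, 18.0 and 26.2 FPKM in the miR-204 libraries, against 15.6, 22.3, 14.9 and 19.8 FPKM in the miR-Ctrl libraries. Here the groups overlapped, because replicates 2 and 4 were high in both, but miR-204 was higher in 4 of 4 pairs. Of all tested genes, 33.9% were also higher in 4 of 4 pairs. The log2 fold change was 0.320, with an unpaired 95% interval of −0.075 to 0.715 (adjusted p = 0.656) and a paired one of 0.230 to 0.409 (adjusted p = 0.0075). Within pairs the difference ran from 0.262 to 0.385.

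Itga3 (16400; chr11:95044474-95076801, minus strand), the laminin-binding alpha chain, was at 10.6, 11.3, 12.2 and 14.1 FPKM in the miR-204 libraries, against 7.21, 9.75, 7.39 and 10.5 FPKM in the miR-Ctrl libraries. The lowest miR-204 library and the highest miR-Ctrl library nearly touched without overlapping. Its log2 fold change of 0.430 was the largest of the 10 members (means 12.0 ± 1.52 and 8.72 ± 1.67 FPKM with miR-204 and miR-Ctrl; unpaired adjusted p = 0.412, paired 0.0187). The differences within pairs were uneven, at 0.492, 0.189, 0.653 and 0.386 for replicates 1 to 4, with the smallest in replicate 2.

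Itgb5 (16419; chr16:33829665-33949338, plus strand), a beta chain that pairs with the Itgav product, was at 121, 107, 105 and 120 FPKM in the miR-204 libraries, against 91.1, 102, 89.3 and 93.6 FPKM in the miR-Ctrl libraries. The groups did not overlap, and the rise was small in replicate 2 (0.075) beside 0.407, 0.228 and 0.358 in replicates 1, 3 and 4. The log2 fold change was 0.267 (unpaired adjusted p = 0.305, paired 0.0353). With centred libraries it was 0.203 and did not pass (paired adjusted p = 0.0761). Without both replicate 2 libraries it was 0.331 (paired adjusted p = 0.00663). Thus 3 members, Itga3, Itga5 and Itgb5, had groups that did not overlap, all of them higher with miR-204, as did 4.32% of tested genes, while 1.58% of tested genes were lower without overlap.

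Itgb1 (16412; chr8:128685654-128733200, plus strand), the beta chain that all 4 collagen-binding alpha chains and the Itga5 product need, was at 143, 162, 123 and 143 FPKM in the miR-204 libraries, against 142, 170, 121 and 143 FPKM in the miR-Ctrl libraries. Values of equal number nearly coincided while replicates 2 and 3 were the extremes of both groups. The log2 fold change was −0.012, with a paired 95% interval of −0.097 to 0.072 and an adjusted p of 0.833 paired and 0.993 unpaired. The ratio of Itgb5 to Itgb1 FPKM was 0.663 to 0.854 in the miR-204 libraries and 0.596 to 0.738 in the miR-Ctrl libraries, given as a description.

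**Figure D2:**
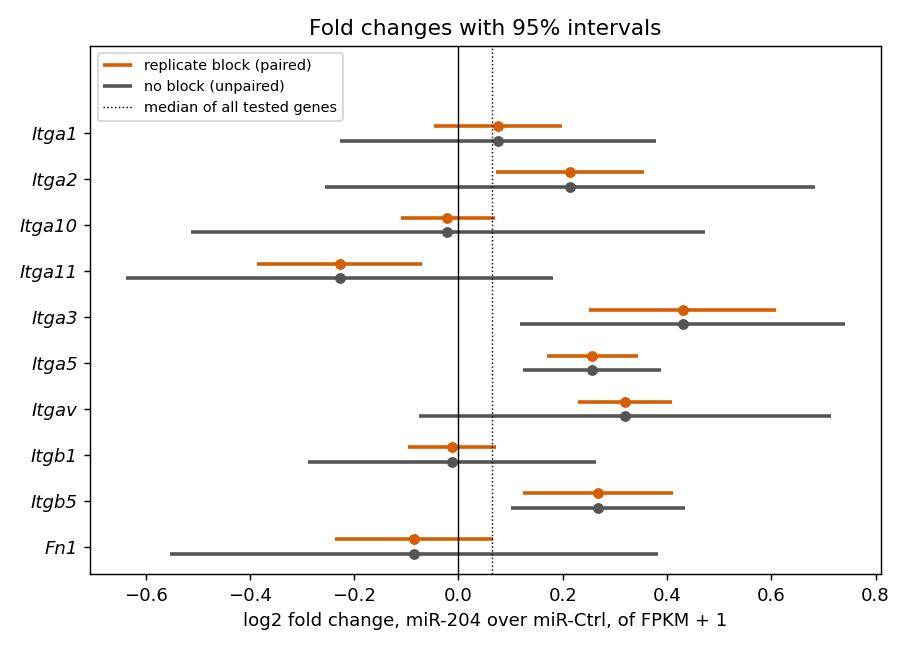
Log2 fold change of FPKM + 1 (horizontal axis, miR-204 over miR-Ctrl) of each member as a point, with 95% intervals from limma with the replicate block (orange, upper) and without it (grey, lower); the dotted line is the median of all tested genes, 0.064. The paired intervals of Itga2, Itga3, Itga5, Itgav and Itgb5 lie above 0 and above that median, that of Itga11 lies below 0, and those of Itga1, Itga10, Itgb1 and Fn1 span 0. The intervals are not adjusted for the number of genes. Itga2 and Itga11 did not pass in the paired fit (limma adjusted p = 0.0578 and 0.0635).

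None of the 4 collagen-binding alpha chains passed either test over all 8 libraries. Itga10 (213119; chr3:96645584-96664519, plus strand), the most abundant of them, was at 44.6, 27.1, 47.4 and 40.7 FPKM in the miR-204 libraries, against 45.1, 27.7, 45.6 and 43.5 FPKM in the miR-Ctrl libraries. Both replicate 2 libraries stood low, at 0.617 times the mean of the other 6, and the groups overlapped. The log2 fold change was −0.021 (paired 95% interval −0.111 to 0.070, adjusted p = 0.736 paired and 0.993 unpaired). Exons of Itga10 overlap those of the annotated gene Gm42957 on the same strand, and how reads were divided between them is not known.

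Itga11 (319480; chr9:62677826-62783982, plus strand), a collagen receptor alpha chain of fibroblasts, was the 1 member lower in 4 of 4 pairs, a pattern shared by 7.44% of tested genes. It was at 4.20, 5.18, 2.64 and 4.83 FPKM in the miR-204 libraries, against 4.79, 5.58, 3.98 and 5.76 FPKM in the miR-Ctrl libraries, and the groups overlapped. Its log2 fold change of −0.228 passed neither test (adjusted p = 0.770 unpaired and 0.0635 paired). It passed the paired test without both replicate 2 libraries, at −0.274 (adjusted p = 0.0324). The difference was −0.453 in pair 3 and between −0.214 and −0.089 in the other pairs.

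Itga2 (16398; chr13:114833081-114932100, minus strand), the collagen receptor alpha chain also found on platelets, was the lowest member, at 1.70, 1.14, 1.57 and 2.74 FPKM in the miR-204 libraries, against 1.38, 0.982, 1.06 and 2.16 FPKM in the miR-Ctrl libraries. It was higher with miR-204 in 4 of 4 pairs, as were 33.9% of tested genes. The log2 fold change of 0.214 did not pass (adjusted p = 0.823 unpaired and 0.0578 paired), except in the paired fit without both replicate 2 libraries, at 0.248 (adjusted p = 0.0323). Its neighbour Itga1 (109700; chr13:114953096-115101964, minus strand), on the same strand of chromosome 13, was at 4.15, 3.75, 3.69 and 5.58 FPKM in the miR-204 libraries, against 4.03, 3.86, 3.33 and 4.77 FPKM in the miR-Ctrl libraries. Its exons overlap those of the annotated gene Gm49395 on the same strand, so its values carry the same doubt as those of Itga10. Itga1 passed neither test (log2 fold change 0.076, paired 95% interval −0.046 to 0.198, adjusted p = 0.329 paired and 0.920 unpaired). Replicate 4 was highest in both groups for both neighbours.

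Fn1 (14268; chr1:71585520-71653200, minus strand) was at 3792, 3241, 2392 and 3499 FPKM in the miR-204 libraries, against 3762, 3990, 2387 and 3633 FPKM in the miR-Ctrl libraries. Replicate 3 was lowest in both groups, and only pair 2 differed by more than 0.1 on the log2 scale, at −0.300, against 0.011, 0.003 and −0.055 in pairs 1, 3 and 4. The log2 fold change was −0.085 (paired 95% interval −0.236 to 0.066, adjusted p = 0.375 paired and 0.955 unpaired). Fn1 made up 0.528% to 0.851% of the summed FPKM with miR-204 and 0.552% to 0.876% with miR-Ctrl. An annotated gene on the opposite strand, Apol7d, overlaps its exons, and the same holds for Itgav and Gm13684. The libraries were stranded per the labels, but whether counting used the strand is not given.

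As shares of the summed FPKM of the 7 alpha chains, the collagen-binding chains held 47.6%, 34.2%, 47.0% and 42.5% in miR-204 replicates 1 to 4, against 53.4%, 39.0%, 53.2% and 49.2% in miR-Ctrl replicates 1 to 4. The RGD-binding chains held 43.3%, 55.4%, 42.6% and 46.5% with miR-204, against 39.7%, 51.0%, 39.6% and 41.6% with miR-Ctrl. The collagen-binding share was lower with miR-204 within each pair, but the summed FPKM of these chains differed by little: it was 54.7, 37.2, 55.3 and 53.8 FPKM with miR-204, against 55.3, 38.1, 54.0 and 56.2 FPKM with miR-Ctrl. The RGD-binding chains summed to 49.7, 60.3, 50.1 and 58.9 FPKM with miR-204, against 41.1, 49.8, 40.2 and 47.5 FPKM with miR-Ctrl. These sums were higher in 4 of 4 pairs, as were 33.9% of single tested genes. The sum of all 7 chains, the denominator of the shares, averaged 117 FPKM with miR-204 and 104 FPKM with miR-Ctrl. Itga10 alone held 25.0% to 40.3% of the sum with miR-204 and 28.4% to 44.9% with miR-Ctrl. These shares combine the members' own values and were not tested. In RNA from a culture, fewer cells of a type and less RNA per cell cannot be told apart.

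**Figure D3:**
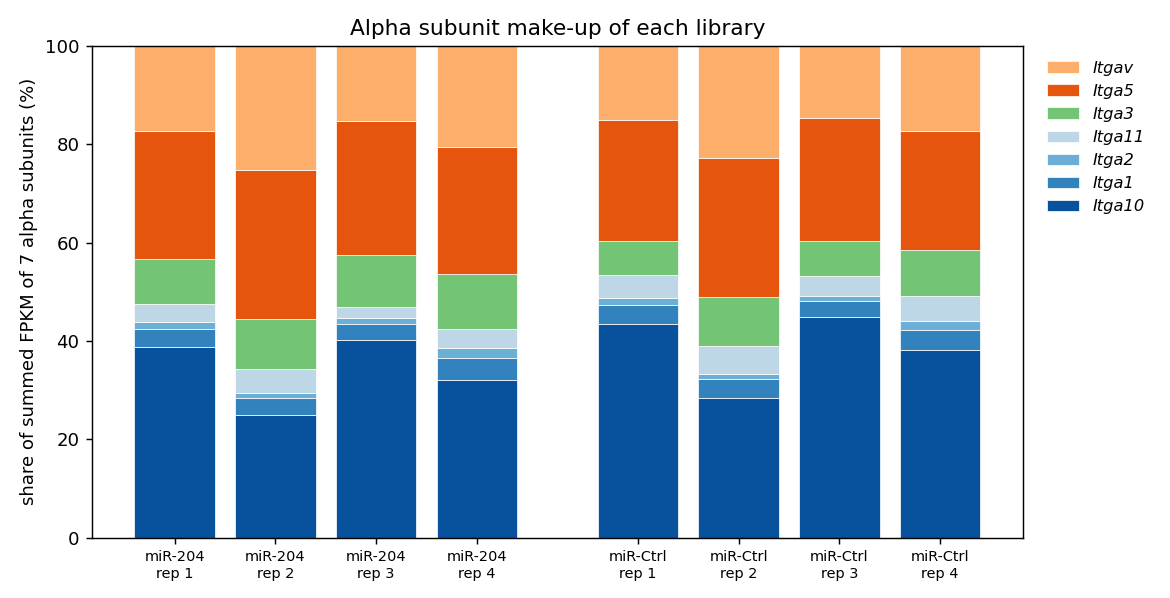
Share of the summed FPKM of the 7 alpha chains (vertical axis, percent) held by each chain in each library, miR-204 libraries on the left and miR-Ctrl libraries on the right; blue shades are collagen-binding, green laminin-binding and orange shades RGD-binding chains. In each replicate number the blue part is a smaller share with miR-204, of a larger total, and both replicate 2 libraries have the smallest blue parts of their groups.

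The counts of other genes below stand beside 12.4% of all tested genes higher and 2.83% lower in the paired fit. With centred libraries these shares were 4.99% and 4.32%. Other integrin chains, listed together with Itgbl1, which does not encode a receptor chain, were mostly low: of 18 genes in the table, 7 reached the filter of a mean of 1 FPKM. Itga6, which encodes a laminin receptor chain, led them at 26.0 ± 4.27 FPKM with miR-204 and 22.8 ± 3.04 FPKM with miR-Ctrl, and passed neither test (paired adjusted p = 0.0676). In the paired fit 2 of the 7 rose and 1 fell, and unpaired 0 passed. Itgb8, a partner of the Itgav product in TGF-beta activation, rose (0.327, paired adjusted p = 0.0294), as did Itgbl1, which encodes a secreted beta-like protein (0.422, paired adjusted p = 0.0444). Both lost the call with centred libraries (paired adjusted p = 0.076 and 0.0969). Itga7, another laminin receptor chain, fell (−0.324, paired adjusted p = 0.0362) to 2.58 ± 0.528 FPKM with miR-204, against 3.48 ± 0.678 FPKM with miR-Ctrl. The leukocyte chain genes Itgb2 and Itgam did not exceed 0.871 and 0.0427 FPKM in any library.

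Among 38 tested genes of the adhesion plaque, which links integrin tails to actin and kinases, 0 passed unpaired, and 8 rose and 3 fell in the paired fit. The median log2 fold change was 0.084, beside 0.064 for all tested genes. Vinculin (Vcl, 0.234, paired adjusted p = 0.0141), the actin-binding plaque protein, the tensin gene Tns1 (0.251, 0.0132) and the kinase gene Ptk2b (0.369, 0.0152) rose, and the tensin gene Tenc1 fell (−0.270, 0.00997). With centred libraries 4 rose and 3 fell, beside 4.99% of all tested genes higher and 4.32% lower. Vcl, Tns1, Ptk2b and Tenc1 kept their calls there (paired adjusted p between 0.00393 and 0.0404). Of 30 co-receptor and traffic genes, 9 rose and 0 fell in the paired fit. With centred libraries 3 rose and 0 fell, beside 4.99% of all tested genes higher and 4.32% lower. Cav1, which encodes caveolin of membrane pits, rose (0.566, paired adjusted p = 0.0117), as did the hyaluronan receptor gene Cd44 (0.515, 0.0185), the collagen uptake receptor gene Mrc2 (0.237, 0.0191) and Rab21, a GTPase of integrin traffic (0.178, 0.0217). Mrc2 and Rab21 did not pass with centred libraries (paired adjusted p = 0.0535 and 0.0804).

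Of 25 other integrin ligands, 3 rose and 1 fell in the paired fit and 0 passed unpaired, with a median of 0.071; these counts are near the 12.4% and 2.83% of all tested genes and are no result about ligands as a group. Fbn2, which encodes a microfibril protein with an RGD motif, fell (−0.621, paired adjusted p = 0.00351) to 7.96 ± 3.15 FPKM with miR-204, against 12.8 ± 4.62 FPKM with miR-Ctrl. Cyr61, a matricellular ligand of Itgav integrins, rose (0.265, 0.0140), and so did the laminin chain genes Lamb2 (0.250, 0.0215) and Lamc1 (0.211, 0.0386). Lamb2 and Lamc1 lost the call with centred libraries (paired adjusted p = 0.052 and 0.0851). There 1 ligand rose and 1 fell, beside 4.99% of all tested genes higher and 4.32% lower. Of 14 genes of fibronectin assembly and processing, 0 passed either test in limma. Thbs1, an adhesive glycoprotein gene at 1439 ± 259 FPKM with miR-204 and 1310 ± 215 FPKM with miR-Ctrl, and Anxa2 (550 ± 33.9 and 481 ± 74.5 FPKM with miR-204 and miR-Ctrl) had the highest means.

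Marker genes of this and other cell types were read in the same fits. Of 5 tested smooth muscle and pericyte markers, 3 rose in the paired fit, and the list's summed level was 311 to 465 FPKM with miR-204 and 201 to 316 FPKM with miR-Ctrl. Acta2 held the largest part of it and was at 187 ± 29.7 FPKM with miR-204 and 92.0 ± 7.74 FPKM with miR-Ctrl. It was higher also without the block (log2 fold change 1.006, unpaired adjusted p = 0.0242), the 1 gene of these lists to pass there. Tagln (0.555, paired adjusted p = 0.00489) and Mcam (0.816, 0.00238) rose in the paired fit as well. All 3 kept their calls with centred libraries. Cspg4 (−0.007) and Cnn1 (0.049) passed neither test, and Myh11, which defines smooth muscle, averaged 0.103 FPKM. Of 8 fibroblast markers 1 rose in the paired fit, a share near that of all tested genes (summed 2070 to 4575 FPKM with miR-204 and 1952 to 4228 FPKM with miR-Ctrl), and Col1a1 and Col1a2, of highest mean, were at 0.013 and −0.053. Of 8 chondrocyte markers 2 fell in the paired fit (summed 10460 to 27012 FPKM with miR-204 and 10697 to 34650 FPKM with miR-Ctrl). The list's median was −0.149, beside 0.064 for all tested genes. With centred libraries 3 fell and 0 rose, beside 4.32% of all tested genes lower and 4.99% higher. Sox9 was the 1 added there (paired adjusted p = 0.0217). Without centring, Comp (−0.175) fell. Col2a1 (−0.227), Acan (−0.282), Sox9 (−0.123) and Col11a2 (−0.115) were below 0 and did not pass. The largest difference of the list was that of Hapln1, which encodes a link protein of aggrecan, at 143 ± 49.8 FPKM with miR-204 and 303 ± 121 FPKM with miR-Ctrl (−1.04, paired adjusted p = 0.00136), while Matn3 (0.31) and Col9a1 (0.012) were above 0 and did not pass. Of 8 macrophage markers 2 were tested and Cd68 rose in the paired fit, with the list's sum at 8.60 to 16.4 FPKM with miR-204 and 3.28 to 13.0 FPKM with miR-Ctrl and Lyz2 (0.446) not passing. Cd68 and Lyz2 carried that sum. Of the markers below the filter, Emr1, Tyrobp, Fcer1g and Itgam had lower means with miR-204 (0.0142 to 0.101 FPKM) than with miR-Ctrl (0.0249 to 0.2 FPKM). Ptprc (0.0116 and 0.0103 FPKM with miR-204 and miR-Ctrl) and Csf1r (0.112 and 0.111 FPKM) did not. All of these lie near 0 with wide SDs (Tyrobp 0.0577 ± 0.0766 FPKM with miR-204), so no direction is read from them. Endothelial markers summed to 2.71 to 3.13 FPKM with miR-204 and 2.29 to 3.32 FPKM with miR-Ctrl, of which Egfl7 (2.46 FPKM) and Tek (0.171 FPKM) had the highest means, and platelet markers to 2.00 to 3.53 and 1.82 to 2.67 FPKM with miR-204 and miR-Ctrl, led by Itgb3 and Itga2b (1.52 and 0.510 FPKM). No marker was at 0 in all 8 libraries. The part of these cells in the integrin results was not tested.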

How the data were processed

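Per the labels' protocols, stranded libraries were made from polyadenylated RNA of total RNA. The authors deposited 1 FPKM value per gene and library. Per the submitters' processing notes, TopHat, Cufflinks 2.2.1 and mm10 were used; the sources used here do not name a TopHat version, a Cufflinks mode or filters. A gene's FPKM also drops if a handful of abundant genes gain fragments.

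The 10 members and the gene lists were chosen with earlier results of these data known. Testing used limma 3.58.1 (R 4.3.3), two-sided and with the prior variance as a trend, on log2(FPKM + 1) of genes averaging 1 FPKM or more in the libraries of a fit, with Benjamini-Hochberg adjustment over all tested genes at 0.05. No count model was used. The labels gave group and replicate number. Across genes, equal-numbered libraries had correlated deviations from their group means, at r = 0.44, 0.82, 0.76 and 0.62 for replicates 1 to 4, so the numbers pair the libraries; the labels state no shared origin, and the pairing rests on these correlations. Relative depth came from the modal ratio of FPKM values below 0.1. Symbols that were missing or dates (158) were restored by gene ID in 156 cases. The fits were also run on simulated data with known changes. Differences between replicate numbers were built into those data, so that run cannot test the pairing, and no result here is drawn from it. All 10 members were named. From each list, named genes were up to 4 past the unpaired threshold, else up to 4 past the paired one by adjusted p, else the 2 of highest mean. From each marker list they were the 2 of highest mean. Other genes given beside the results were chosen outside these rules, after their values were seen. They were Itga6, Mmp13, Hapln1, Matn3, Col9a1, Acan, Sox9, Col11a2, Tagln, Mcam, Cnn1, Myh11 and the leukocyte, macrophage and endothelial marker genes. For Fn1, Itgb1 and Itga10 the 3 genes of most similar pattern were also named.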

Additional observations from a re-analysis of the deposited data

Results flagged for a closer look

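Itga10 in the miR-Ctrl libraries had 1 library far from the other 3: replicate 2 was at 27.7 FPKM beside 43.5, 45.1 and 45.6 FPKM, and this gap took up 0.903 of the group's range on the log2 scale, above Dixon's 95% limit for 4 values. The miR-204 library of the same number was also the lowest of its group, at 27.1 FPKM. Of 20 such groups examined (10 members in both conditions) it was the 1 past the limit, and chance flags about 1 in 20.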

How the results depend on the processing

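The calls rested on the replicate block. Without it, miR-204 cells had 3 higher and 21 lower genes; with centred libraries 8 and 55, with quantile normalization 7 and 66, and with no filter on low values 0 and 9. With the block 1436 were higher and 329 lower, with the block and centred libraries 579 and 502, with the block and a pseudocount of 0.1 1434 and 332, and with the block and quantile normalization 555 and 536. Leaving out single libraries or pairs gave 0 to 4 higher and 0 to 16 lower without the block. With the block there were 137 higher and 93 lower without pair 1, 2828 and 535 without pair 2, 264 and 153 without pair 3, and 88 and 82 without pair 4. Without pair 2 and with centred libraries, 1260 were higher and 1025 lower. That setting and quantile normalization with the block were chosen after seeing the data.

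Of the members, 0 passed in any setting without the block. With the block 4 rose, beside 12.4% of all tested genes, and also 4 at a pseudocount of 0.1, beside 1434 of 11612 genes. With centred libraries or quantile normalization 3 rose, beside 579 and 555 of 11612 genes. Without pair 2, 5 rose and 1 fell, beside 24.5% of genes higher and 4.64% lower. With centred libraries besides, 4 rose and 1 fell, beside 1260 of 11532 genes higher and 1025 lower. Without pair 3, 2 rose (Itga5 and Itgav), beside 2.27% of genes. Without pair 1 or pair 4, 0 rose, beside 1.18% and 0.76% of genes. The adjusted p without pairs 1, 3 and 4 was 0.0879, 0.0578 and 0.0846 for Itga3, 0.0566, 0.0469 and 0.075 for Itga5, 0.0511, 0.0309 and 0.0579 for Itgav, and 0.131, 0.101 and 0.154 for Itgb5.

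Where they passed, the log2 fold changes with the block, then with centred libraries, a pseudocount of 0.1, quantile normalization, without pair 2, and without pair 2 with centred libraries were, for Itga3, 0.43, 0.366, 0.469, 0.358, 0.51 and 0.436. For Itga5 they were 0.257, 0.193, 0.265, 0.196, 0.26 and 0.186, and 0.232 without pair 3. For Itgav they were 0.32, 0.256, 0.334, 0.259, 0.33 and 0.256, and 0.339 without pair 3. Itgb5 passed at 0.267 with the block, 0.27 at a pseudocount of 0.1, 0.331 without pair 2 and 0.257 with centred libraries besides. Itga2 passed once, at 0.248 without pair 2. Itga11 passed without pair 2, at −0.274 and, centred, −0.348.

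The sign of members near 0 turned in some settings. Itga1 was at −0.000221 with quantile normalization, with and without the block, and −0.0335 without miR-204 replicate 4. Itga10 was at 0.15 without miR-204 replicate 2, 0.039, 0.0448 and 0.0221 without miR-Ctrl replicates 1, 3 and 4, and 0.00358 without pair 4, in both fits. Itgb1 was at 0.0568 without miR-204 replicate 3, 0.0712 without miR-Ctrl replicate 2 and 0.00912 without pair 2, in both fits. Fn1 was at 0.0526 without miR-204 replicate 3. Over all settings run, the ranges were −0.0335 to 0.148 for Itga1, −0.188 to 0.15 for Itga10, −0.093 to 0.0712 for Itgb1 and −0.252 to 0.0526 for Fn1. Itga2, Itga3, Itga5, Itga11, Itgav and Itgb5 kept their sign in all settings run. A minimum mean of 5 FPKM gives no value for Itga1, Itga2 and Itga11. The cause of these changes was not tested. Read totals are not given, so no counting interval can be set on the low Itga2 values.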

Other observations

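The genes whose pattern over the 8 libraries was most like that of a member are given as a description, since the libraries share 4 replicate numbers and likeness over 8 points follows mainly from them. For Fn1 these were Fig4 (Pearson r = 0.973), the lysyl oxidase family gene Loxl4 (0.970) and the transcription factor gene Cebpa (0.969). For Itgb1 they were the transcriptional repressor gene Zbtb7a (0.998), Steap2 (0.995) and Sh3d19 (0.995). For Itga10 they were Xlr3b (0.991), the glutathione-degrading enzyme gene Chac1 (0.988) and the valyl-tRNA synthetase gene Vars (0.987).

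Itgb1 exceeded the sum of the 7 alpha chains in every library, at 1.04 to 1.49 times that sum with miR-204 and 1.19 to 1.75 times with miR-Ctrl. This holds for the 7 member chains alone. Alpha chains outside the members are left out of the sum, among them Itga6, at 21.4 to 31.5 FPKM with miR-204 and 19.6 to 26.7 FPKM with miR-Ctrl. Itgb5 stood at 3.90 to 6.05 times Itgav with miR-204 and 4.56 to 6.01 times with miR-Ctrl. Both are ratios of FPKM, which set transcript levels per length and not protein.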
